A study of Mus musculus with 6 samples.

Results

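The 8 genes Lsm1 to Lsm8 encode the subunits of the LSm rings, which bind the 3′ ends of RNAs. They were chosen by symbol and not by a rule on their measured levels, but with earlier results of these data known. Ensembl identifiers matched them to 8 of the 29139 genes of the count table. RNA was measured in 2-cell mouse embryos of the ICR strain that were kept in KSOM, a culture medium for preimplantation embryos. The treated group, of 3 libraries, received MS-444 at 75 µM, and the control group, of 3 libraries, received the solvent DMSO at 0.1%. MS-444 is known as an inhibitor of HuR, the product of Elavl1 and an RNA-binding protein with a preference for U-rich and AU-rich 3′ untranslated regions (3′ UTRs). Lysates of 16 embryos were used per the labels, so each library holds RNA of pooled embryos. The labels do not tie the replicates to separate mothers or cultures, and the p-values measure the spread between these libraries, which may be technical.

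Each LSm ring has 7 subunits in a circle. Lsm2 to Lsm7 are shared by 2 rings. With Lsm8 they form the nuclear ring, which binds the uridine tract at the 3′ end of U6 small nuclear RNA, the catalytic RNA of the spliceosome. With Lsm1 they form the cytoplasmic ring, which binds the 3′ ends of deadenylated mRNAs together with Pat1 proteins and stimulates removal of the cap. In the mouse oocyte and early embryo, both splicing of new transcripts and decay of maternal mRNA take place. The related Sm proteins form the ring that coats the other spliceosomal RNAs.

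Library totals were between 2637763 and 4695866 counts, and the members together had 791, 1567 and 1630 counts in MS-444 replicates 1, 2 and 3 and 581, 1796 and 778 counts in DMSO replicates 1, 2 and 3. A gene was tested where it passed edgeR's expression filter, and it was called where its Benjamini-Hochberg adjusted p in edgeR's quasi-likelihood test was under 0.05. The 5 markers of the 2-cell embryo (Zscan4d, Zscan4c, Zfp352, Tdpoz4 and Usp17lc) were present in every library, with a summed level of 896 to 1410 CPM (counts scaled to library size with TMM factors) in MS-444 libraries and 940 to 1620 CPM in DMSO libraries, and 0 of the 5 were called. The 6 oocyte genes (Zp3, Gdf9, Bmp15, Nlrp5, Ooep and Padi6) summed to 1980 to 2300 CPM in MS-444 libraries and 3880 to 6190 CPM in DMSO libraries, and 4 of the 6 were called lower. Of the cumulus and granulosa cell markers, 7 of 8 were in the table and summed to 21.4 to 24.5 CPM in MS-444 libraries and 11.9 to 12.9 CPM in DMSO libraries. Summed over libraries, Fshr had 1 count in MS-444 and 2 in DMSO, Ptx3 had 0 in MS-444 and 1 in DMSO, Has2 had 2 in MS-444 and 6 in DMSO, and Foxl2 had 7 in MS-444 and 4 in DMSO. Cyp19a1, which encodes aromatase, had 32 counts in MS-444 and 72 in DMSO, and Col4a1 had 29 in MS-444 and 22 in DMSO. Of these 7 cumulus and granulosa markers only 2 passed the filter and were tested, and 1, Amhr2, was called higher. Amhr2 had 173 counts over the MS-444 libraries and 28 over the DMSO libraries. The 2 blood markers in the table, Hba-a1 and Ptprc, summed to 9.42 to 24.2 CPM in MS-444 libraries and 2.03 to 7.31 CPM in DMSO libraries. Of the blood markers only 1, Hba-a1, was tested, and it was called higher. Ptprc had 1 count in MS-444 libraries and 0 in DMSO libraries. The part of these marker lists in the results below was not tested. Elavl1 itself averaged 51.44 ± 6.58 CPM in MS-444 libraries and 73.29 ± 22.3 CPM in DMSO libraries (SD, n = 3 each), with an adjusted p of 0.208.

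Lsm8, the subunit that only the nuclear ring holds, rose under MS-444, and Lsm4, a subunit of both rings, rose with it. Lsm1, the subunit that only the cytoplasmic ring holds, did not pass the test. Of the 8 members, 8 were tested, 2 were called higher and 0 lower, against a background of 25.5% of the 11864 genes tested called in either direction, 14.4% higher and 11.1% lower. The share of members called is near that background, and the count is no result about the family. Without MS-444 replicate 2, MS-444 replicate 3 or DMSO replicate 3, 1 member was called, and without DMSO replicate 1, 3 were. The members' median log2 fold change was 0.40, against 0.02 over all genes tested. Groups did not overlap for 3 members (Lsm4, Lsm5 and Lsm8), against 43.9% of all genes tested.

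**Figure D1:**
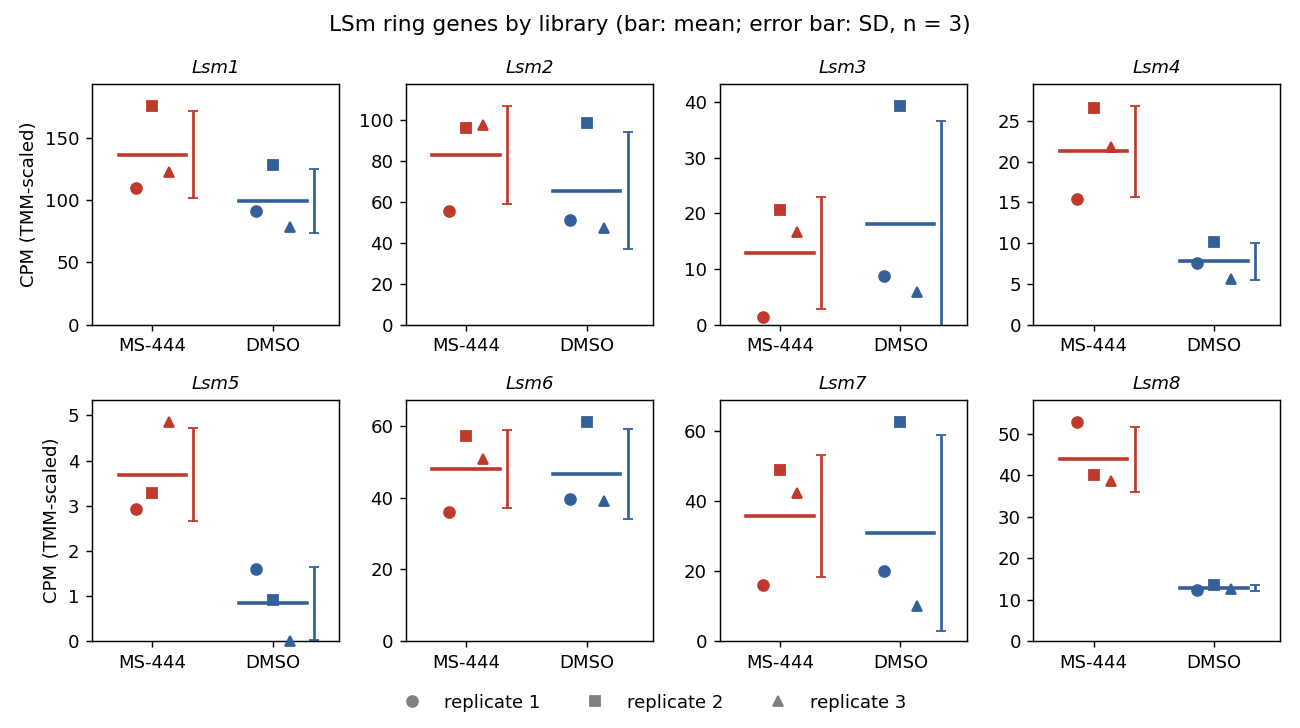
TMM-scaled CPM of each member by library, MS-444 on the left and DMSO on the right of each panel (symbols: replicates; bar: mean; error bar: SD, n = 3; axes start at 0 and differ between panels, and the Lsm3 DMSO error bar is cut at 0). The groups are apart for Lsm4, Lsm5 and Lsm8. Within the MS-444 group, Lsm1, Lsm2, Lsm3, Lsm4, Lsm6 and Lsm7 are lowest in MS-444 replicate 1. The same members are highest in DMSO replicate 2 within the DMSO group.

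Lsm8 (ENSMUSG00000044155) had 52.8, 40 and 38.6 CPM in MS-444 replicates 1, 2 and 3, against 12.4, 13.6 and 12.5 CPM in DMSO replicates 1, 2 and 3. The lowest MS-444 library stood well above the highest DMSO library, and the DMSO libraries lay close together. The counts behind these levels were 144, 134 and 159 in MS-444 libraries and 31, 59 and 49 in DMSO libraries. The mean was 43.79 ± 7.8 CPM in MS-444 libraries and 12.83 ± 0.657 CPM in DMSO libraries (SD, n = 3 each). Lsm8 was 3.4-fold higher under MS-444, a log2 fold change of 1.76 ± 0.29 (SE; 95% interval 1.12 to 2.41) with an edgeR adjusted p of 0.00475, rank 233 by p of the genes tested. The call held under all 17 alternative settings, with log2 fold changes between 1.29 and 1.95.

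The annotated Lsm8 transcript is short, with 807 bases, 288 of them coding, and a 3′ UTR of 362 bases. That 3′ UTR holds 3 copies of the AU-rich pentamer ATTTA, the core of the AU-rich elements that HuR and decay factors read. Among the 2227 tested genes with a 3′ UTR under 400 bases, 29.8% had the pentamer at all. The stretches around the 3 copies, at bases 128 to 132, 265 to 269 and 272 to 276 of the 3′ UTR of transcript ENSMUST00000056398.10, are shown because this is the member with the largest called change and the densest ATTTA content per base of 3′ UTR. Each is written 5′ to 3′ on the transcript's strand with the pentamer in capitals.
Lsm8 ATTTA at 128: ctgtaatatgtaATTTAaatatttctaca
Lsm8 ATTTA at 265: ttacttttggtaATTTAatatttatggga
Lsm8 ATTTA at 272: tggtaatttaatATTTAtgggaaattggc
The stretches at 265 and 272 overlap, so that the pentamers there are 2 bases apart. The presence of the letters says nothing of binding in these embryos.

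RefSeq promoter windows of 300 bases, 250 before and 50 after a transcription start on GRCm38.p6, were found for 6 of the 8 members (Lsm2, Lsm3, Lsm5, Lsm6, Lsm7 and Lsm8), in 8 windows. The windows of 3 members are shown: that of Lsm8, which differed between groups, and those of Lsm3 and Lsm7, whose levels differed most between libraries of 1 group. They lie at chr6:18848385-18848684 on the plus strand (Lsm8), chr6:91515785-91516084 on the plus strand (Lsm3) and chr10:80855160-80855459 on the minus strand (Lsm7), and each is written 5′ to 3′ on the gene's strand. Capitals mark matches on either strand to GGGCGG (the GC box bound by Sp factors), ATGGCGG (the YY1 motif) or GCGCATGC (the NRF1 motif), and a longer run of capitals holds GC boxes that overlap each other.
Lsm8 promoter: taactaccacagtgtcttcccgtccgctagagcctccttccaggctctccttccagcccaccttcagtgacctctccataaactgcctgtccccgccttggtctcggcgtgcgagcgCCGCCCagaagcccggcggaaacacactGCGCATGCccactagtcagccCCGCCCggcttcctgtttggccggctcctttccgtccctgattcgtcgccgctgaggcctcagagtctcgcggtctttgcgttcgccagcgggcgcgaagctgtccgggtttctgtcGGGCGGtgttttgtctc
Lsm3 promoter: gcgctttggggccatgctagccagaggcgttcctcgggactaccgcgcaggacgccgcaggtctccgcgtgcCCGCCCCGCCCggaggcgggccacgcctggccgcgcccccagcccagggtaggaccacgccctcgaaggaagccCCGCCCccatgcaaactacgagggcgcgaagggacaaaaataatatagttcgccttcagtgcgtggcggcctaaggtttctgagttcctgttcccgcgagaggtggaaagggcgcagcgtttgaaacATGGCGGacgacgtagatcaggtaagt
Lsm7 promoter: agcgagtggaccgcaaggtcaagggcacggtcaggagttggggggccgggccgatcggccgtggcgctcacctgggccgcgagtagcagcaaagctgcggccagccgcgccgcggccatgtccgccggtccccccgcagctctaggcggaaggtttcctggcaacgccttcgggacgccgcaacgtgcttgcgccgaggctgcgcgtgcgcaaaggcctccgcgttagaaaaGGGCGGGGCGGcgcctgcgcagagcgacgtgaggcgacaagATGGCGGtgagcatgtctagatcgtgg
All 8 member windows held a GC box, as did 35.7% of the 32851 windows of all genes. The 2 windows of Lsm2 overlap, as do the 2 of Lsm7, so the 8 windows are not separate cases. The windows of all genes belong to 27025 genes, also ones not tested here, and were not matched to the members for GC content. The shares below are therefore no test of the members. The NRF1 motif was in 2 member windows (Lsm2 and Lsm8), against 2.71% of all windows. The YY1 motif was in 4 member windows, those of Lsm3 and Lsm5 and the 2 overlapping ones of Lsm7, against 4.05% of all windows. CCGGAA, the ETS core, was in 1 member window (Lsm5), against 14.9%, and TATAAA, the TATA box, in 0 of 8, against 13.6%. GC content was 64% in the Lsm8 window, 65.3% in that of Lsm3 and 70.3% in that of Lsm7, with a median of 52.7% over all windows. In the windows not shown it was 52% for Lsm5, 47.7% for Lsm6, 50.7% and 72% for Lsm2 and 68% for Lsm7. The matches are descriptions of these letters, and no window was found for Lsm1 and Lsm4.

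Lsm1 (ENSMUSG00000037296), which makes the ring a decay ring, had 110, 176 and 123 CPM in MS-444 replicates 1, 2 and 3, against 91.5, 128 and 78.6 CPM in DMSO replicates 1, 2 and 3. The groups overlapped, since DMSO replicate 2 lay above 2 of the MS-444 libraries. The mean was 136.3 ± 35 CPM in MS-444 libraries and 99.38 ± 25.6 CPM in DMSO libraries (SD, n = 3 each). The log2 fold change was 0.45 ± 0.29 (SE), with a 95% interval of -0.18 to 1.09 and an adjusted p of 0.264. In the annotated transcript used here its 3′ UTR is long, with 1877 bases. It holds 3 ATTTA pentamers, the same number as the much shorter 3′ UTR of Lsm8.

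The share of the ring-specific subunits within a library needs no scaling between libraries. For each count of Lsm8 there were 2.08, 4.4 and 3.19 counts of Lsm1 in MS-444 replicates 1, 2 and 3, against 7.39, 9.42 and 6.29 in DMSO replicates 1, 2 and 3. Every MS-444 library had a lower ratio than every DMSO library. On the log2 scale the ratio averaged 1.62 ± 0.54 in MS-444 libraries and 2.92 ± 0.29 in DMSO libraries (SD, n = 3 each), a difference of -1.30. An exact two-sided permutation test gave p = 0.1, the smallest value that 3 libraries against 3 allow, so this test could not reach 0.05. Per transcript length, Lsm1 made up 38.7%, 57.1% and 49.1% of the summed TPM (a level per transcript length, computed here from counts and annotated lengths) of Lsm1 and Lsm8 in MS-444 replicates 1, 2 and 3, against 69.1%, 74.1% and 65.6% in DMSO replicates 1, 2 and 3. Lsm1 was thus the more abundant per length in 1 of 3 MS-444 libraries and in 3 of 3 DMSO libraries, an order that depends on the transcript length used.

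**Figure D2:**
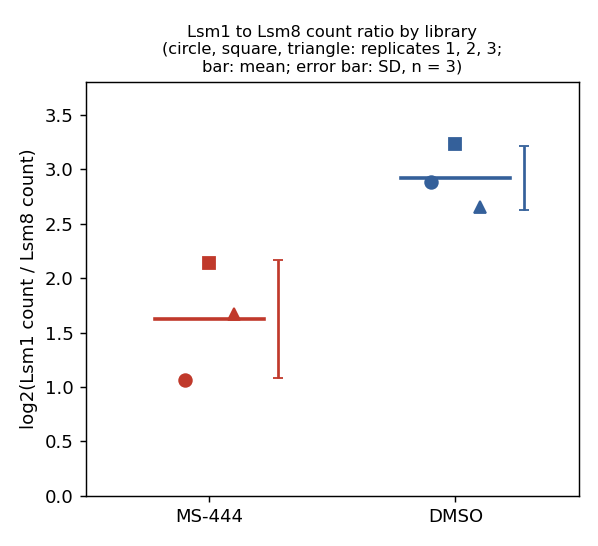
log2 of the Lsm1 count over the Lsm8 count in each library, MS-444 on the left and DMSO on the right (symbols: replicates; bar: mean; error bar: SD, n = 3). The 3 MS-444 libraries sit at 1.06, 2.14 and 1.67, all below the 3 DMSO libraries at 2.88, 3.24 and 2.65.

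Lsm4 (ENSMUSG00000031848), a shared subunit whose arginine-rich tail carries symmetric dimethylarginine, had 15.4, 26.6 and 21.8 CPM in MS-444 replicates 1, 2 and 3, against 7.6, 10.1 and 5.61 CPM in DMSO replicates 1, 2 and 3. All 3 MS-444 libraries were above all 3 DMSO libraries. Counts were 42, 89 and 90 in MS-444 libraries and 19, 44 and 22 in DMSO libraries. Lsm4 rose 2.72-fold, a log2 fold change of 1.45 ± 0.37 (SE; 95% interval 0.62 to 2.27) with an adjusted p of 0.0198. The call was lost in 4 of 17 settings. With offsets for GC content and length the log2 fold change was 0.70 (adjusted p = 0.0882), and without MS-444 replicate 2, MS-444 replicate 3 or DMSO replicate 3 it was 1.19, 1.42 or 1.20, with adjusted p-values of 0.104, 0.0718 and 0.068. The Lsm4 transcript is the most GC-rich of the members, at 59.4%, and its 3′ UTR of 301 bases holds 0 ATTTA and 0 runs of TTTTT.

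Lsm5 (ENSMUSG00000091625), another shared subunit, was the scarcest member. It had 8, 11 and 20 counts in MS-444 replicates 1, 2 and 3, against 4, 4 and 0 counts in DMSO replicates 1, 2 and 3, or 2.93, 3.29 and 4.85 CPM in MS-444 libraries against 1.6, 0.921 and 0 CPM in DMSO libraries. The groups did not overlap, but Lsm5 passed the filter on low counts through the MS-444 libraries alone, where all 3 and no DMSO library reached the minimum of 2.86 CPM. Its log2 fold change was 2.23 ± 0.76 (SE; 95% interval 0.56 to 3.90) with an adjusted p of 0.0523, which missed the threshold. It passed in 4 of 15 settings, with adjusted p-values from 0.04 to 0.132 over them. The annotation holds 3 copies of Lsm5 elsewhere in the genome, with 91.1% to 99.2% identity over the aligned bases. Reads shared with such copies make its count uncertain. Lsm6 has 4 such copies, 2 of them in the count table, with 14 counts against 1015 of Lsm6. For Lsm1 there is 1, Gm15209 (94% identity over 403 bases), which is not in the count table. The count of Lsm1 in its ratio to Lsm8 thus carries the same uncertainty.

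**Figure D3:**
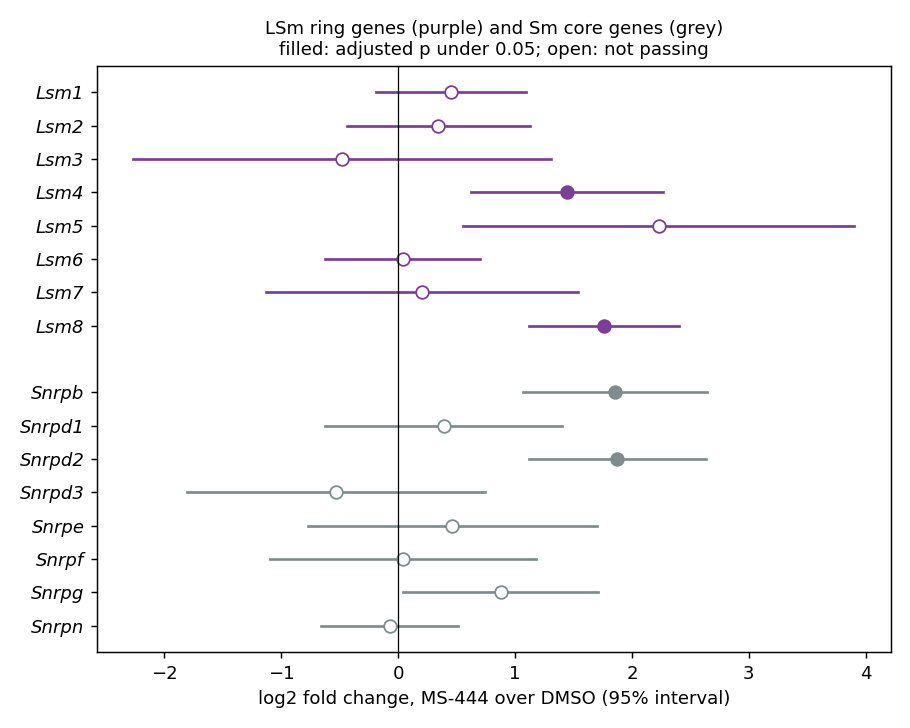
log2 fold change, MS-444 over DMSO, with its 95% interval, for the 8 members (purple) and the 8 Sm core genes (grey), from edgeR's fit across all genes; filled points passed an adjusted p of 0.05. Lsm4 and Lsm8 among the members and Snrpb and Snrpd2 among the Sm genes are filled, and the interval of Lsm3 is the widest.

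The other shared subunits, Lsm2, Lsm3, Lsm6 and Lsm7, overlapped between groups, and none of them passed the test. Lsm2 (ENSMUSG00000007050) had 55.3, 95.9 and 97.5 CPM in MS-444 replicates 1, 2 and 3, against 50.8, 98.1 and 46.9 CPM in DMSO replicates 1, 2 and 3, a log2 fold change of 0.34 ± 0.35 (SE) with an adjusted p of 0.492. Its value was -0.26 with the GC and length correction. Lsm6 (ENSMUSG00000031683) had 35.9, 57.1 and 50.7 CPM in MS-444 libraries and 39.6, 61 and 39 CPM in DMSO libraries, a log2 fold change of 0.04 ± 0.30 (SE; 95% interval -0.62 to 0.70) with an adjusted p of 0.933. Its sign turned in 6 of 17 settings, with values from -0.17 to 0.43. A difference of Lsm6 in either direction within that interval could not be told from 0 at this depth and spread.

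Lsm3 and Lsm7 were the most uneven members within a group. Lsm3 (ENSMUSG00000034192) had 4, 69 and 69 counts in MS-444 replicates 1, 2 and 3, against 22, 171 and 23 counts in DMSO replicates 1, 2 and 3, which gave 1.47, 20.6 and 16.7 CPM in MS-444 libraries and 8.8, 39.4 and 5.87 CPM in DMSO libraries. The highest and the lowest Lsm3 levels of all libraries were thus in DMSO replicate 2 and MS-444 replicate 1. The log2 fold change was -0.48 ± 0.81 (SE) with an adjusted p of 0.686, and the sign turned to 0.79 without DMSO replicate 2. Lsm7 (ENSMUSG00000035215) had 16.1, 48.7 and 42.2 CPM in MS-444 libraries, against 20, 62.4 and 9.95 CPM in DMSO libraries. Its log2 fold change was 0.21 ± 0.60 (SE) with an adjusted p of 0.821, and it was 1.22 without DMSO replicate 2. Its sign turned in 4 of 17 settings. Lsm7 has 2 near-identical copies in the table, Gm10146 and Gm13182, with 74 counts over all libraries against 741 of Lsm7.

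The same libraries stood apart for most members. On the log2(CPM + 0.5) scale, DMSO replicate 2 minus the mean of the other DMSO libraries was 2.37 for Lsm3, 2.10 for Lsm7 and 0.999 for Lsm2, but 0.12 for Lsm8. Among all genes tested, the Lsm3 difference was at percentile 99.8, that of Lsm7 at 99.6 and that of Lsm8 at 61.1. MS-444 replicate 1 minus the mean of the other MS-444 libraries was -3.28 for Lsm3, -1.46 for Lsm7 and -0.80 for Lsm2, but 0.42 for Lsm8. The Lsm3 difference there was at percentile 0.135 of all genes. Short transcripts shifted the same way. Over the 1184 tested genes with a transcript under 1000 bases the median of this difference was 0.75 in DMSO replicate 2 and -0.57 in MS-444 replicate 1, against -0.08 and 0.02 over the 10657 longer ones. The median over the members was 0.61 in DMSO replicate 2 and -0.60 in MS-444 replicate 1. The part of transcript length in the spread of the members was not tested. For the members, lengths are those of the longest annotated coding transcript, and which transcript these embryos expressed is not known. By that measure Lsm1 (2663 bases) and Lsm6 (3792 bases) were long, with differences of 0.59 and 0.63 in DMSO replicate 2. In MS-444 replicate 1 their differences were -0.42 and -0.58. Lsm8 (807 bases) was short, with the differences given above. By median annotated length, Lsm1 (636 bases) was shorter than Lsm8 (848.5 bases), and Lsm6 had 1324 bases.

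A fit without DMSO replicate 2 and MS-444 replicate 1 was added after these values were seen. It drops the DMSO library in which most members were high and the MS-444 library in which most were low, so that higher fold changes of Lsm1 to Lsm7 follow from the choice and support nothing. In that fit, of 2 libraries against 2, 16.3% of 12198 genes were called, 9.1% higher and 7.17% lower, and 3 members were called higher (Lsm4, Lsm7 and Lsm8). Lsm8, which was highest in the MS-444 library left out, stood at 1.63 on the log2 scale there (adjusted p = 0.0235).

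**Figure D4:**
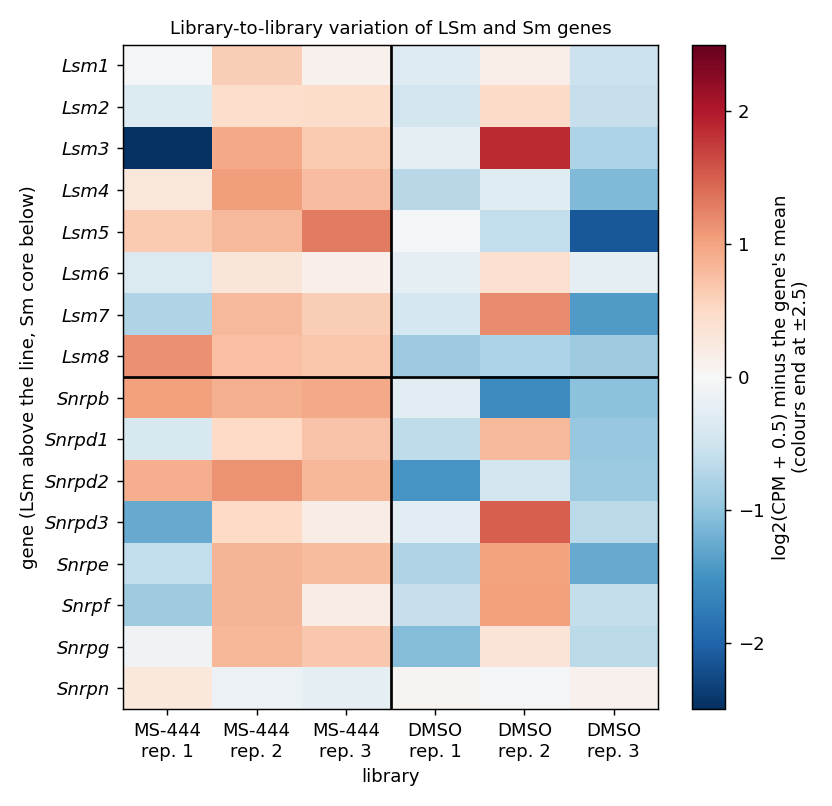
Deviation of log2(CPM + 0.5) from each gene's mean over the 6 libraries, for the members (above the line) and the Sm core genes (below), with MS-444 libraries left of DMSO libraries. Lsm8 and Lsm4 separate the groups, whereas Lsm3, Lsm7, Snrpd3, Snrpe and Snrpf are lowest in MS-444 replicate 1 or DMSO replicate 3 and highest in DMSO replicate 2.

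Profiles across the 6 libraries were compared by the root mean square difference of log2(CPM + 0.5) after centring, as a description. Among members the closest pairs were Lsm2 and Lsm6 (0.229), Lsm1 and Lsm6 (0.24) and Lsm1 and Lsm2 (0.247), and the farthest were Lsm3 and Lsm8 (1.852). Lsm4 and Lsm8 differed by 0.439, and the ring-specific Lsm1 and Lsm8 by 0.725. The genes most like Lsm1 were Sdf2 (0.056), Htra2 (0.075) and C87436 (0.078), where the median over all genes was 0.642. Those most like Lsm8 were Snhg5 (0.132), a host gene of small nucleolar RNAs, Terb2 (0.142), a meiotic telomere protein, and Apobec2 (0.144), with a median of 0.956 over all genes. Snhg5 had 151, 138 and 117 CPM in MS-444 libraries and 44, 38 and 36.5 CPM in DMSO libraries. Apobec2, at 3.3, 3.29 and 2.67 CPM in MS-444 libraries and 0.4, 0.691 and 0.51 CPM in DMSO libraries, rests on few counts.

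The subunits of one ring are needed in equal numbers, but their RNA levels per length were not equal. In MS-444 libraries the mean TPM ran from Lsm2 (182 ± 47.1 TPM) through Lsm8 (105 ± 23.5), Lsm1 (97.8 ± 19.8), Lsm7 (60 ± 27.1), Lsm4 (43.9 ± 9.5), Lsm3 (32.7 ± 25.1) and Lsm6 (24.2 ± 4.41) to Lsm5 (14.4 ± 4.04). In DMSO libraries it ran from Lsm2 (135 ± 46.5 TPM) through Lsm1 (68.4 ± 12.3), Lsm7 (48.3 ± 39.7), Lsm3 (42.5 ± 40.5), Lsm8 (29.4 ± 1.15), Lsm6 (22.4 ± 4.01) and Lsm4 (15.4 ± 3.53) to Lsm5 (3.19 ± 3.22; SD, n = 3 each). Lsm8 was thus in position 2 of 8 in MS-444 libraries and in position 5 in DMSO libraries. Among neighbours in the MS-444 order, the library ranges overlapped except between Lsm1 and Lsm7 and between Lsm6 and Lsm5. Among neighbours in the DMSO order they overlapped only for Lsm1 with Lsm7, Lsm7 with Lsm3 and Lsm3 with Lsm8. These levels assume reads along the whole of the longest annotated coding transcript. With the median transcript length of each gene, Lsm1 was in position 1 in both groups, and Lsm8 in position 4 in MS-444 libraries and in position 6 in DMSO libraries. The mean Lsm1 to Lsm8 TPM ratio was then 4.3 in MS-444 libraries and 10.3 in DMSO libraries. With the longest transcript it was 0.977 in MS-444 libraries and 2.33 in DMSO libraries, so that with the median length Lsm8 no longer led Lsm1 in MS-444 libraries.

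The members shared short coding sequences, from 234 bases (Lsm7) to 414 bases (Lsm4), against a median of 1383 bases over the genes tested. The longest annotated coding transcripts of 6 members (all but Lsm1 and Lsm6) had 494 to 1129 bases, against a median of 2906 bases. ATTTA occurred in the 3′ UTRs of Lsm1 (3 copies), Lsm5 (1), Lsm6 (6) and Lsm8 (3), and in none of Lsm2, Lsm3, Lsm4 and Lsm7. Of the called members one, Lsm8, had the pentamer and the other, Lsm4, lacked it. Runs of TTTTT were in 7 of the 8 3′ UTRs, with Lsm4 the exception, against 79.7% of the 10383 tested genes with an annotated 3′ UTR, of which 72% had ATTTA.

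The Sm core, the sister ring of the other spliceosomal RNAs, also held called and uncalled genes. Of 8 Sm genes, 8 were tested, 2 rose, 0 fell and 6 did not pass, with a median log2 fold change of 0.43. As for the LSm members, that share is near the 25.5% of all genes called, and the count is no result about the family. Snrpb, which encodes the SmB protein, had 63, 56.8 and 59.7 CPM in MS-444 replicates 1, 2 and 3, against 25.6, 9.9 and 14.8 CPM in DMSO replicates 1, 2 and 3 (log2 fold change 1.85 ± 0.36, SE; adjusted p = 0.0074). Snrpn, its near-identical relative, had 39.67 ± 7.6 CPM in MS-444 libraries and 41.64 ± 2.45 CPM in DMSO libraries (SD, n = 3 each), and reads that match both genes make either value uncertain. Snrpd2, which encodes SmD2, had 35.9, 41.2 and 33.7 CPM in MS-444 libraries and 6.4, 13.6 and 9.7 CPM in DMSO libraries (log2 fold change 1.88 ± 0.34, SE; adjusted p = 0.00643). Both were called under all 17 alternative settings. Snrpd1, Snrpd3, Snrpe, Snrpf and Snrpg followed the library pattern of Lsm3 and Lsm7, with differences of 1.20 to 2.00 between DMSO replicate 2 and the other DMSO libraries on the log2(CPM + 0.5) scale, and Snrpg, the most abundant, averaged 463.4 ± 141 CPM in MS-444 libraries and 252.2 ± 133 CPM in DMSO libraries (adjusted p = 0.109). Without DMSO replicate 2 and MS-444 replicate 1, 5 Sm genes were called higher and 0 lower, against 9.1% and 7.17% of all genes in that fit, but these are libraries in which several Sm genes were high and low, and the count supports nothing.

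**Figure D5:**
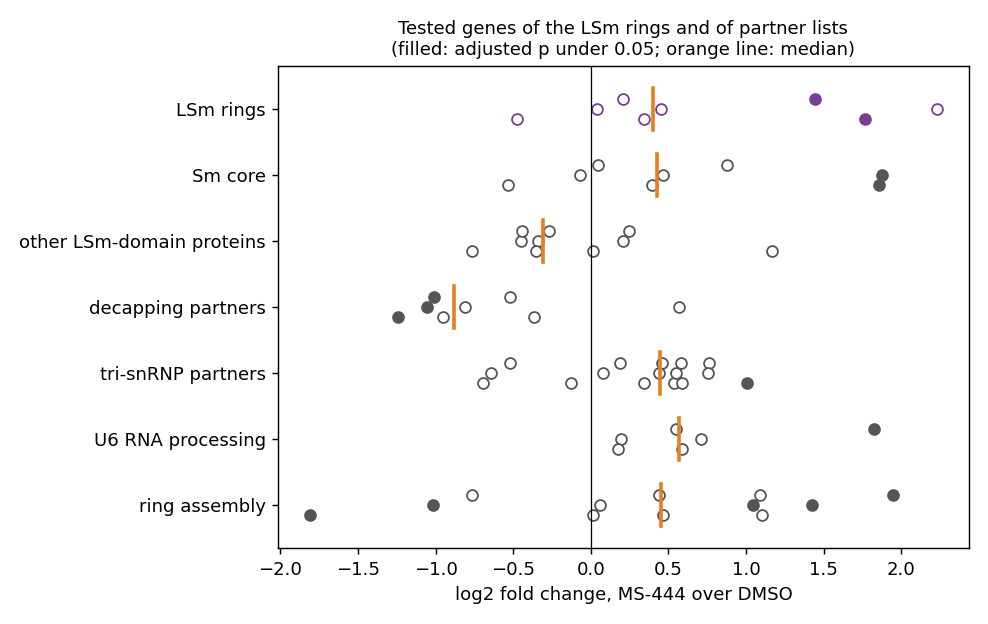
log2 fold change, MS-444 over DMSO, of every tested gene of the LSm rings (purple) and of the partner lists (grey); filled points passed an adjusted p of 0.05 and the orange line is the list's median. Called genes of the decapping list lie left of 0, at -1.01 to -1.24, and those of the Sm, tri-snRNP and U6 lists lie right of it. The tri-snRNP and U6 lists hold 1 called gene each, and the ring assembly list has 3 called genes to the right and 2 to the left.

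Among partners of the cytoplasmic ring in decapping and 5′ to 3′ decay, Eif4enif1, Dcp1a and Edc4 fell. Of 10 such genes, 8 were tested, 3 fell, 0 rose and 5 did not pass, beside 11.1% of all genes lower and 14.4% higher. The median log2 fold change was -0.88, against 0.02 over all genes tested. The groups did not overlap for 8 of the 8, against 43.9% of all genes tested. MS-444 libraries were the lower ones for 7 of them and the higher ones for 1, Ddx6. In other lists the groups did not overlap for 8 of 12 ring assembly genes and 6 of 16 tri-snRNP genes. For the U6 list it was 3 of 6 and for the Sm core 2 of 8. Of the decapping list, 0 were called without MS-444 replicate 2 or MS-444 replicate 3 and 1 without DMSO replicate 3. Eif4enif1, the 4E-T protein that represses translation and binds the decay machinery, had 256, 248 and 245 CPM in MS-444 replicates 1, 2 and 3, against 428, 438 and 687 CPM in DMSO replicates 1, 2 and 3 (log2 fold change -1.05 ± 0.25, SE; adjusted p = 0.0149). Dcp1a, an activator of the decapping enzyme, had 161, 86.3 and 110 CPM in MS-444 libraries and 215, 240 and 389 CPM in DMSO libraries (log2 fold change -1.24 ± 0.32, SE; adjusted p = 0.0197). Edc4, a scaffold of the decapping complex, averaged 13.78 ± 3.28 CPM in MS-444 libraries and 27.9 ± 6.89 CPM in DMSO libraries (adjusted p = 0.0475), a call lost in 7 of 17 settings. Patl1, the Pat1 protein that docks on the Lsm1 ring, had 61.9, 49.9 and 62.6 CPM in MS-444 libraries and 66, 64.5 and 94.4 CPM in DMSO libraries, and did not pass (adjusted p = 0.33). The exonuclease gene Xrn1 was at 41 ± 12.3 CPM in MS-444 libraries and 71.72 ± 9.93 CPM in DMSO libraries (adjusted p = 0.0631). Ddx6, a helicase of the same complex, had a positive log2 fold change of 0.57 (adjusted p = 0.17). Of the 6 oocyte genes given above, 4 were also called lower in MS-444 libraries, while Zp3 had 399 counts in MS-444 and 316 in DMSO. The part of the oocyte genes in these values was not tested. In these bulk libraries, fewer cells with an RNA and less of it per cell cannot be told apart.

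Among partners of the nuclear ring, Prpf4 and Mettl16 rose. Of 18 genes of the U4/U6.U5 tri-snRNP, 16 were tested, 1 rose and 15 did not pass, with a median of 0.45, beside 14.4% of all genes higher. With the GC and length correction 1 gene of this list was called higher and 1 lower. The one called, Prpf4, a protein of U4/U6, averaged 44.02 ± 1.86 CPM in MS-444 libraries and 21.98 ± 6.1 CPM in DMSO libraries (log2 fold change 1.01 ± 0.30, SE; adjusted p = 0.0341), and it lost its call in 7 of 17 settings, among them without each library but DMSO replicate 1. Snu13, the most abundant of them and the first protein to bind the U4 RNA, was at 512.6 ± 116 CPM in MS-444 libraries and 303.7 ± 123 CPM in DMSO libraries (adjusted p = 0.117). Of 6 genes that make or modify U6 RNA, 6 were tested, 1 rose and 5 did not pass, with a median of 0.57. Beside the 14.4% of all genes called higher, the counts of the tri-snRNP and U6 lists are no result about these lists. Mettl16, which methylates U6 RNA, had 13.2, 17.9 and 13.8 CPM in MS-444 replicates 1, 2 and 3, against 4.4, 3.68 and 4.59 CPM in DMSO replicates 1, 2 and 3. Its log2 fold change was 1.82 ± 0.37 (SE; adjusted p = 0.00851), and the call was lost only without MS-444 replicate 2 (log2 fold change 1.62). Ssb, the La protein that binds new U6 before the LSm ring, was at 379.9 ± 36 CPM in MS-444 libraries and 332.8 ± 105 CPM in DMSO libraries (adjusted p = 0.627).

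Among genes for the assembly of Sm and LSm rings, Gemin2 rose and Gemin8 fell in every setting. Of 13 genes, 12 were tested, 3 rose (Gemin2, Gemin5 and Prmt5), 2 fell (Gemin8 and Smn1) and 7 did not pass, with a median log2 fold change of 0.45, beside 14.4% of all genes higher and 11.1% lower. Gemin2, which holds the Sm ring during its assembly, had 16.1, 15.2 and 13.8 CPM in MS-444 replicates 1, 2 and 3, against 4.8, 3.91 and 3.06 CPM in DMSO replicates 1, 2 and 3 (log2 fold change 1.95 ± 0.37, SE; adjusted p = 0.00738). Gemin8, another subunit of the SMN complex, had 12.1, 18.8 and 11.9 CPM in MS-444 libraries and 37.6, 46.5 and 66.1 CPM in DMSO libraries (log2 fold change -1.81 ± 0.34, SE; adjusted p = 0.00676). These calls held under all 17 alternative settings. Gemin5, which recognises the small nuclear RNAs, averaged 28.67 ± 6.25 CPM in MS-444 libraries and 10.9 ± 5.9 CPM in DMSO libraries (adjusted p = 0.0305). Smn1, which encodes the SMN protein itself, averaged 67.95 ± 22.8 CPM in MS-444 libraries and 137.7 ± 31.2 CPM in DMSO libraries (adjusted p = 0.0362). Prmt5, the methyltransferase that dimethylates arginines of Lsm4 and several Sm proteins, averaged 33.92 ± 10.1 CPM in MS-444 libraries and 16.44 ± 2.53 CPM in DMSO libraries (adjusted p = 0.0385). The calls of Gemin5, Smn1 and Prmt5 were lost in 6, 6 and 9 of 17 settings. Leaving out any library but DMSO replicate 1 ended the call of Gemin5, leaving out any library ended that of Prmt5, and leaving out any but MS-444 replicate 2 and DMSO replicate 1 ended that of Smn1. Strap, the most abundant gene of the list, was at 159.2 ± 21.8 CPM in MS-444 libraries and 117.8 ± 12.3 CPM in DMSO libraries (adjusted p = 0.196).

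Other proteins with an LSm domain, which join neither ring of Lsm1 to Lsm8, did not pass the test. Of 11, 10 were tested and 0 were called, with 2 whose groups did not overlap and a median log2 fold change of -0.31, beside 25.5% of all genes called and 43.9% not overlapping. With the GC and length correction 1 of them was called lower. Lsm14a, the most abundant of them and a translational repressor of storage granules, had 528, 649 and 632 CPM in MS-444 replicates 1, 2 and 3, against 718, 791 and 781 CPM in DMSO replicates 1, 2 and 3 (log2 fold change -0.34 ± 0.21, SE; adjusted p = 0.248). Its MS-444 libraries were all below its DMSO libraries, but the difference did not pass. Lsm10 and Lsm11, which replace SmD1 and SmD2 in the U7 particle for histone mRNA, had log2 fold changes of 0.21 and -0.27, with adjusted p-values of 0.722 and 0.733. In Naa38, whose symbol was once also used for Lsm8, the row matched by Ensembl identifier averaged 4.568 ± 2.52 CPM in MS-444 libraries and 1.984 ± 1.09 CPM in DMSO libraries (SD, n = 3 each; adjusted p = 0.169).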

How the data were processed

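RNA-seq counts were analysed for 3 MS-444 and 3 DMSO libraries of 2-cell mouse embryos. The authors deposited 1 table of read counts per Ensembl gene, without normalization; the submitters' processing notes name HISAT2, Cufflinks 2.2.1 and the build mm9. The sources used here do not give the counting program, strand setting, use of molecular identifiers or treatment of shared reads, or whether reads cover whole transcripts. Intervals cover the spread between libraries. PCR reads are not independent molecules.

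Symbols, lengths and 3′ UTRs came from GENCODE M21, which gave a symbol for 29075 identifiers and none for 64. Promoters came from RefSeq (GRCm38.p6). As the builds differ, no other coordinates are given. Near-identical copies were sought with blastn 2.17.0 (at least 90% identity over 150 bases).

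Genes passing edgeR's filter (minimum count 10; 11864 genes with 98.8% to 99.3% of each library) were scaled by TMM (factors 0.933 to 1.106) and tested with edgeR 4.0.16's two-sided quasi-likelihood test in R 4.3.3, with Benjamini-Hochberg adjustment over all of them. The script was tested on simulated data. Alternatives used limma 3.58.1, DESeq2 1.42.0, other scalings and filters, a GC and length correction, a replicate block and left-out libraries. Chi-square per degree of freedom was 7.99 between MS-444 replicates 2 and 3 and 22.2 between MS-444 replicates 1 and 2. It gave no value for MS-444 replicates 1 and 3 or for any pair of DMSO libraries, and so tells nothing of those pairs. Each library was counted once.

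The members and the 6 partner lists (63 different genes) were chosen with earlier results of these data known. Named genes are all members and, per list, up to 4 called genes with the smallest adjusted p and the most abundant tested gene, plus the 3 closest profiles of Lsm1 and Lsm8 and Elavl1; Prmt5, Snrpn, the other Sm genes named, Patl1, Xrn1, Ddx6, Lsm10, Lsm11 and Naa38 were named after their values were seen.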

Additional observations from a re-analysis of the deposited data

How the results depend on the processing

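Lsm8 kept its direction and call in all 17 settings (adjusted p from 6.32e-05 to 0.025). The Lsm1 to Lsm8 ratio stayed lower in MS-444 libraries, with differences from -1.559 to -1.02 when 1 library was left out. With 0.5 counts added the difference was -1.291. The GC and length correction was not applied to this ratio, and gave log2 fold changes of 0.465 for Lsm1 and 1.285 for Lsm8. Leaving out 1 library gave 1171 to 3820 called genes against 3028, with 1171 and 1211 without MS-444 replicates 3 and 2 and 1774 and 2006 without DMSO replicates 3 and 2, 1 to 3 called members against 2 and 5 to 12 called partners against 12 (5, 5 and 6 without MS-444 replicate 2, MS-444 replicate 3 and DMSO replicate 3, and 8 without MS-444 replicate 1 or DMSO replicate 2). Leaving out DMSO replicate 2 and MS-444 replicate 1 together gave 1984 genes, 3 members and 12 partners, a choice that by itself raises fold changes of most members. The GC and length correction left 1 member, and called 1 tri-snRNP gene and 1 other LSm-domain gene lower. The median transcript length moved the Lsm1 to Lsm8 TPM ratio to 4.3 in MS-444 libraries (from 0.977) and 10.3 in DMSO libraries (from 2.33). The cause of these shifts was not tested. Signs turned for Lsm2 with the GC and length correction (-0.255), for Lsm3 without DMSO replicate 2 (-1.032 to 0.788 over libraries left out) and without both libraries (1.338), and for Lsm7 with the correction (-0.265) and in 3 fits without 1 library (-0.265 to 1.216). They also turned for Lsm6 with no filter (-0.011), with DESeq2 (-0.017) and in 4 fits without 1 library (-0.169 to 0.225), and for Ssb without DMSO replicate 3 (-0.089 to 0.327 over libraries left out). Lsm5 passed with library totals (2.418), no filter (2.17), limma-trend (1.768) and without DMSO replicate 1 (2.821), and had too few counts for a value in 2 settings. Library totals without TMM moved the median of all genes to a log2 fold change of 0.203, with 2179 genes higher and 881 lower (71.2% higher, against 56.3%). Quantile normalization gave 1509 higher and 1535 lower (49.6% higher). Deviations from the group mean correlated at 0.053, 0.369 and -0.101 between same-numbered libraries, and at -0.462 to 0.361 between the others. The deviations within a group depend on each other, so these values cannot decide whether the numbers pair the libraries. The fit with the replicate block called 3405 genes, 2 members and 15 partners. Depth limited Lsm5 most, with 47 counts in all.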
